A study of Mus musculus with 30 samples.

Results

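The comparison described here is that of mouse digit tips collected 3 h after amputation with digit tips collected at 0 h, the reference of a time course of digit regeneration. Its members were chosen by the time label of each sample, which gave 3 mice at 3 h and 3 mice at 0 h, 6 of the 30 mice of the series, and all genes were examined. The mice were adult C57Bl/6 males of 9 to 10 weeks. The methods name no transgene, and no drug treatment apart from anesthesia for each amputation. In every mouse, at 0 h as well as at 3 h, part of the distal phalanx (P3, the last bone of the toe) of hindlimb digit 3 was removed, at most 33% of the bone, and the wound was not sutured. The methods name the footpad as dissected too. The 0 h samples are therefore amputated digits, not digits of unoperated mice. According to the methods the feet were scanned by microCT right after the cut, and how long after it the 0 h digits were collected is not stated in the sources used here. All 6 digits came from right feet. The other mice belong to 7 later times, from 6 h to 21 d.

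The tip of a mouse digit regrows after an amputation that leaves the base of the distal phalanx and of the nail, whereas amputation farther up heals without regrowth. In the first hours after wounding, keratinocytes at the cut edge, stromal cells and the lining of nearby vessels are known to respond through signalling pathways that need no new protein. Immediate early genes such as Fos, Jun and Egr1 are switched on within minutes and off again soon after, and genes driven by NF-kB, a transcription factor held in the cytoplasm until a cell is stimulated, follow. Activated endothelial cells then display selectins and Icam1, by which leukocytes attach to the vessel wall.

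Libraries of polyadenylated RNA gave 9955035 to 12773273 expected counts for 0 h mice 1 and 2, 6094615 for 0 h mouse 3, and 4999521, 4549551 and 3167625 for 3 h mice 1, 2 and 3. Dates in the sample titles fall into 2 periods, called campaigns here, July to August 2015 (16 mice) and November to January (14 mice). All 3 h mice carry the date 14 July, 0 h mouse 3 carries 20 July, and 0 h mice 1 and 2 carry 30 November, so that the 3 h mice share a campaign with only 1 of the 0 h mice and have the lowest depth. The animal label in the title of 0 h mouse 3 recurs in that of 3 h mouse 2 under another date and in that of a 12 h mouse under the same date and foot. The methods give 30 mice for the 30 libraries, and the libraries were treated as separate mice. Whether the dates mark surgery, collection, extraction or sequencing is not stated in the labels. Between the campaigns, with time point in the model, 3319 of 13793 tested genes differed at an adjusted p under 0.05 (24.1%). The 3 h mice were also less alike than the 0 h mice: the SD over genes of the difference in log2(CPM + 1) was 0.70 to 0.87 between 3 h mice and 0.39 to 0.58 between 0 h mice. On the first 2 principal components of the 6 mice, which held 39.6% and 29% of the variance, 3 h mouse 1 lay nearest to the 0 h mice. The most abundant transcripts at 3 h were those of layered skin, with the keratins Krt10, Krt2, Krt1, Krt24 and Krt14 among the 10 genes of highest mean TPM (abundance scaled to gene length and depth), beside Calm4, Fabp5, Perp, Krtap21-1 and 1110025L11Rik. The bone matrix gene Ibsp and the osteoclast protease Ctsk were detected as well.

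At 3 h, genes of vessel and leukocyte adhesion, the cytokine Il6, proteases of the extracellular matrix and several transcriptional regulators were higher than at 0 h, and genes of mitosis were lower together with Fos and Jun. Of 13793 genes tested, 35 differed at an adjusted p under 0.05 (0.254%), 19 of them higher at 3 h (0.138%) and 16 lower (0.116%), by the quasi-likelihood test of edgeR, with p-values adjusted after Benjamini and Hochberg. That fit took the spread between mice from all 30 mice. At an unadjusted p under 0.05, 725 genes were higher (5.26%) and 781 lower (5.66%). The log2 fold changes of the called genes ran from 1.02 to 8.13 among the higher and from -3.08 to -1.04 among the lower, and the median over all tested genes was -0.01.

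The number of calls rested on single mice. Without 0 h mouse 1 or 0 h mouse 2, no gene passed (1097 and 797 at an unadjusted p under 0.05). Asf1b, a histone chaperone, was the single gene to pass without 3 h mouse 2 (log2 fold change -5.53, adjusted p = 0.0135), 10 genes passed without 3 h mouse 3, and 150 passed without 3 h mouse 1. A fit of the 6 mice alone called 0 genes by edgeR (1788 at an unadjusted p under 0.05), while DESeq2's Wald test on all 30 mice called 152. On log2(TPM + 1) values, limma called 3 genes higher and 36 lower, a split that leans to the lower side, against 19 and 16 in counts. With campaign as a covariate, 47 genes passed (0.341%), of which 29 were among the 35. Within the earlier campaign, where a single 0 h mouse remains and is assumed to vary like mice of the other times, only Ect2, a regulator of cell division, passed (log2 fold change -2.09, standard error 0.32, adjusted p = 0.0406). None of the 35 genes was called there. Of the 35, 6 lost their call with campaign as a covariate, namely Racgap1 (adjusted p = 0.0634), Jun (0.0697), Ccna2 (0.0763), Pde4b (0.0768), Ska2 (0.10004) and Trip13 (0.106). No gene of the 35 changed sign in these fits, of which the fit of the 6 mice gave no value for Il6. In every 3 h mouse the 19 higher genes lay above 0 h mouse 3, the July mouse, and the 16 lower genes below it, which the choice of these genes largely fixes, since that mouse is in the contrast. Among all tested genes, 20.9% lay above that mouse in all 3 h mice and 22.6% below it.

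**Figure D1:**
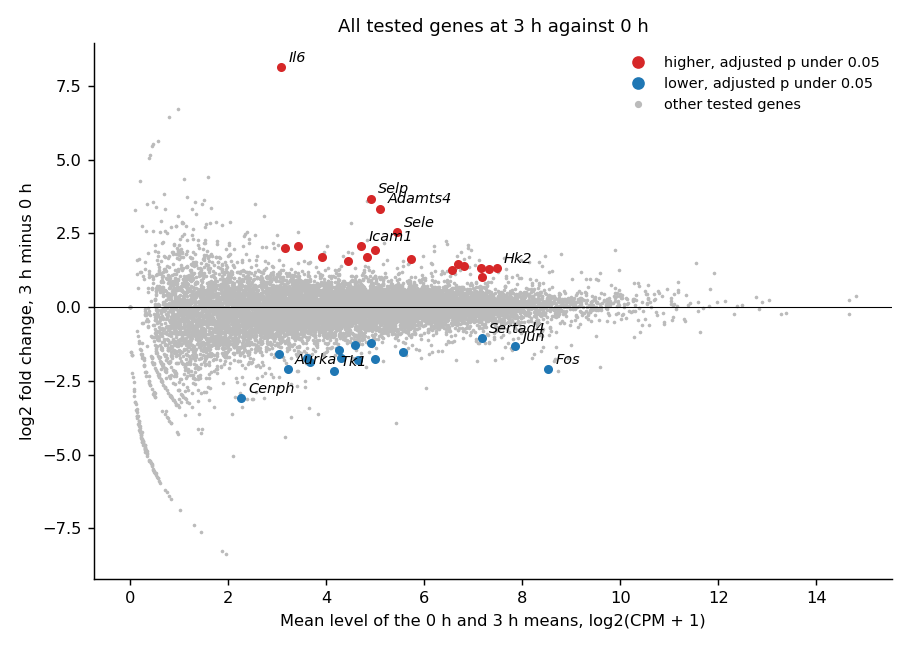
Each point is 1 of the 13793 tested genes, with the mean of its 0 h and 3 h levels on the x axis, as log2(CPM + 1), and its fitted log2 fold change of 3 h against 0 h on the y axis. The 19 higher genes are red and the 16 lower genes blue, and the curved fringes at the left are genes with very few counts in 1 of the groups.

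The adhesion molecules of activated endothelium were among the genes that rose most. Selp (P-selectin, chr1:164115264-164150026, GRCm38, plus strand) catches rolling leukocytes and is held in storage granules of endothelial cells and platelets. It measured 3.76, 3.62 and 5.28 CPM (counts scaled to the depth of each library, with TMM normalization) in 0 h mice 1, 2 and 3, and 10.2, 73.5 and 77.3 CPM in 3 h mice 1, 2 and 3. Every 3 h mouse lay above every 0 h mouse, 3 h mouse 1 far below the other two (log2 fold change 3.67, standard error 0.65, adjusted p = 0.00848).

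Sele (E-selectin, chr1:164048234-164057677, plus strand), a selectin made by stimulated endothelium, had 9.04, 8.63 and 20.0 CPM at 0 h and 24.9, 85.1 and 107 CPM at 3 h. Its highest 0 h value was that of the July mouse and close to 3 h mouse 1, yet the groups did not overlap (log2 fold change 2.54, standard error 0.47, adjusted p = 0.0106). Icam1 (chr9:21015985-21028817, plus strand), the ligand of leukocyte integrins, rose from 10.8, 9.17 and 8.80 CPM to 19.0, 45.8 and 57.5 CPM (log2 fold change 2.07, standard error 0.35, adjusted p = 0.00698). Among the 6 general endothelial markers, 2 had a positive and 4 a negative log2 fold change, with a median of -0.19. All 3 h mice lay above all 0 h mice in 2 of them and below in 1. Of all tested genes, 9.16% lay above and 10.6% below in this way. Pecam1 was at 49.7, 51.2 and 58.9 CPM at 0 h and at 42.0, 50.3 and 55.7 CPM at 3 h, none of the 6 endothelial markers passed, and their summed level was 79.3 to 108 TPM at 0 h and 80.0 to 96.0 TPM at 3 h. Platelets hold Selp as well, and their markers summed to 51.9 to 64.5 TPM and 26.3 to 70.6 TPM. In tissue RNA of this kind, fewer cells of a type and less RNA per cell cannot be told apart.

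Il6 (chr5:30013114-30019981, plus strand), the cytokine that drives the acute phase response through Stat3, had 1 count in the 0 h mice together, in mouse 1, and 163 in the 3 h mice. In CPM the 3 h mice held 1.22, 21.2 and 22.4. The ratio of the summed levels was 369, with a 95% counting interval of 65.4 to 14700, which covers counting error only (adjusted p = 0.00698 in edgeR's test). With 3 counts set for each 0 h mouse, taken as the smallest number the depth can show, the ratio of mean levels was 40.5. Of its neighbours in the list of Il6 family cytokines and JAK-STAT feedback, none of the other 16 tested members passed: Stat3 had a log2 fold change of 0.84 (adjusted p = 0.0654), Lif 2.18 (0.103) and Osmr 1.46 (0.136).

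The promoters of 15 of the 19 higher genes have an entry in RefSeq's GRCm38.p6 annotation (300 bases, from 250 before the start to 50 after it). The NF-kB site, searched as GGGA and CC with any 4 bases between them, was found on either strand in 9 of these 15 (Bnc1, Il6, Pde4b, Plaur, Sbno2, Sele, Selp, Sh3bp2 and Tiparp) and in 3 of the 14 lower genes with an entry, against 22.9% of 27025 genes with a promoter. Icam1 had no match in its window. The AP-1 site TGACTCA was found in Il6, Plaur and Sele and in none of the 14 lower genes (5.95% of all genes), the cAMP element TGACGTCA in none of the 15 and in Cenpe of the 14 (2.03%), and the TATA box TATAAA in 3 and 2 (15.7%). The CArG box, bound by serum response factor, was in none of either group (1.81% of all genes). Such matches are a description of letters, with no test. The promoters of the 2 selectins and of Il6 are shown because these genes rose most among those with the site, with NF-kB matches in capitals, lying at chr1:164115014-164115313, chr1:164047984-164048283 and chr5:30012864-30013163, all on the plus strand. In Il6 matches on both strands overlap in 1 run of capitals.
Selp: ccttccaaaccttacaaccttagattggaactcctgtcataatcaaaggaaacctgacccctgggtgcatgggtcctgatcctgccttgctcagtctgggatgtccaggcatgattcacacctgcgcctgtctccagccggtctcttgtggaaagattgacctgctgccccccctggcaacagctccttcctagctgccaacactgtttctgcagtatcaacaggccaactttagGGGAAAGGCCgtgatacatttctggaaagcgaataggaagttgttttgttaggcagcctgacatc
Sele: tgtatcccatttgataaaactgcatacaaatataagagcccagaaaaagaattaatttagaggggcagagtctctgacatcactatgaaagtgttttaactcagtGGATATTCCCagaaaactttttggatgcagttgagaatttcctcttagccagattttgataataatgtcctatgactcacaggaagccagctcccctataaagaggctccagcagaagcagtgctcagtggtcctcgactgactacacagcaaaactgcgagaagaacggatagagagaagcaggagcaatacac
Il6: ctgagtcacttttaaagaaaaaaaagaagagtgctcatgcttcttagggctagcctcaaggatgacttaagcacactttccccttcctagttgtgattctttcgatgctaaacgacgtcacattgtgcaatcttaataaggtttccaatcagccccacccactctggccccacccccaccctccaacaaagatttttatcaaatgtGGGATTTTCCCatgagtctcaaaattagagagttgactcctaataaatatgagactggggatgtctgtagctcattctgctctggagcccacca

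Of 18 tested members of the list of NF-kB pathway genes and their feedback, which includes Icam1, 2 passed, Icam1 and Nfkbiz, both higher (0.138% of all tested genes were called higher), 16 had a positive log2 fold change, and the list median was 0.81 against -0.01 over all tested genes. In 8 of the 18 all 3 h mice lay above all 0 h mice, as did 9.16% of all tested genes. The gene lists used here were chosen with earlier results of these data known, so such counts are no independent support. Nfkbiz, the nuclear IkB protein needed for secondary targets such as Il6, had 48.2, 40.5 and 74.2 CPM at 0 h and 76.2, 173 and 199 CPM at 3 h. Its July 0 h mouse and 3 h mouse 1 were almost level (log2 fold change 1.46, standard error 0.29, adjusted p = 0.0151). Bcl3, another nuclear IkB protein, had 2.64, 1.49 and 2.40 CPM at 0 h and 8.97, 16.3 and 10.1 CPM at 3 h but did not pass (log2 fold change 2.43, adjusted p = 0.0766).

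Matrix proteases and their regulators held 3 called genes among 16 tested, all higher (0.138% of all tested genes were), and none called lower (0.116%). Adamts4, an aggrecanase that cleaves cartilage and skin proteoglycans, measured 2.56, 6.82 and 9.12 CPM at 0 h and 13.7, 96.5 and 71.9 CPM at 3 h. The groups did not overlap, and 3 h mice 2 and 3 were several times higher than 3 h mouse 1 (log2 fold change 3.33, standard error 0.55, adjusted p = 0.00698). Adamts9, a related protease of versican and aggrecan, had 5.60, 4.26 and 10.2 CPM against 19.6, 16.5 and 28.6 CPM (log2 fold change 1.69, adjusted p = 0.0444). It was the 1 higher gene in which 3 h mouse 1 was not the lowest of its group, and it was also lower in the later campaign by 0.82 on the log2 scale. Plaur, the receptor of the plasminogen activator urokinase, rose from 4.40, 3.09 and 1.76 CPM to 8.56, 15.4 and 14.5 CPM (log2 fold change 2.007, adjusted p = 0.0444). Timp1, an inhibitor of metalloproteinases, had a log2 fold change of 2.31 without passing (adjusted p = 0.0746). The median of the 16 was 1.122.

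The next genes, placed together after their values were seen, are mostly known as regulators of transcription. Myc, which drives growth and is an immediate early gene, had 49.7, 47.6 and 66.9 CPM at 0 h and 88.3, 170 and 137 CPM at 3 h (log2 fold change 1.27, standard error 0.25, adjusted p = 0.0151). Bnc1, basonuclin 1, a zinc finger protein of basal keratinocytes, rose from 11.2, 12.5 and 14.2 CPM to 24.9, 68.4 and 53.1 CPM (log2 fold change 1.95, adjusted p = 0.00759). The summed level of basal keratinocyte markers was 10610 to 12910 TPM at 0 h and 10290 to 12340 TPM at 3 h. None of the 6 tested markers passed, though all 6 had a positive log2 fold change (median 0.11). Sbno2, a corepressor induced by cytokines that act through Stat3, had 58.8, 62.5 and 61.8 CPM against 96.4, 199 and 188 CPM, with a narrow 0 h group (log2 fold change 1.40, adjusted p = 0.00759). Bach1, a haem-sensing repressor, rose by a log2 fold change of 1.29 (adjusted p = 0.0105) but was also lower in the later campaign by 0.33 on the log2 scale. Tiparp, a mono-ADP-ribosyltransferase and target of the aryl hydrocarbon receptor, rose by 1.63 (adjusted p = 0.0127).

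The remaining 6 higher genes have varied roles. Piezo1, a mechanically gated ion channel, had 84.4, 69.3 and 86.6 CPM at 0 h and 134, 243 and 227 CPM at 3 h (log2 fold change 1.33, adjusted p = 0.0127). Hk2, the hexokinase that starts glycolysis in stimulated cells, had 91.7, 87.2 and 126 CPM against 154, 252 and 351 CPM (log2 fold change 1.31, adjusted p = 0.0383). It was the single called member of 22 tested genes of hypoxia and glycolysis, whose median was 0.23 (0.138% of all tested genes were called higher). Pde4b, which degrades cAMP, rose by 1.699 (adjusted p = 0.0444), Sh3bp2, a signalling adaptor, by 1.56 (0.0195), Sowahc by 1.02 (0.0229) and Smim3 by 2.09 (0.0448). In 18 of the 19 higher genes 3 h mouse 1 was the lowest of the 3 h mice, where 30.5% of all tested genes had it lowest. The date and the foot in its title are those of the other two 3 h mice.

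**Figure D2:**
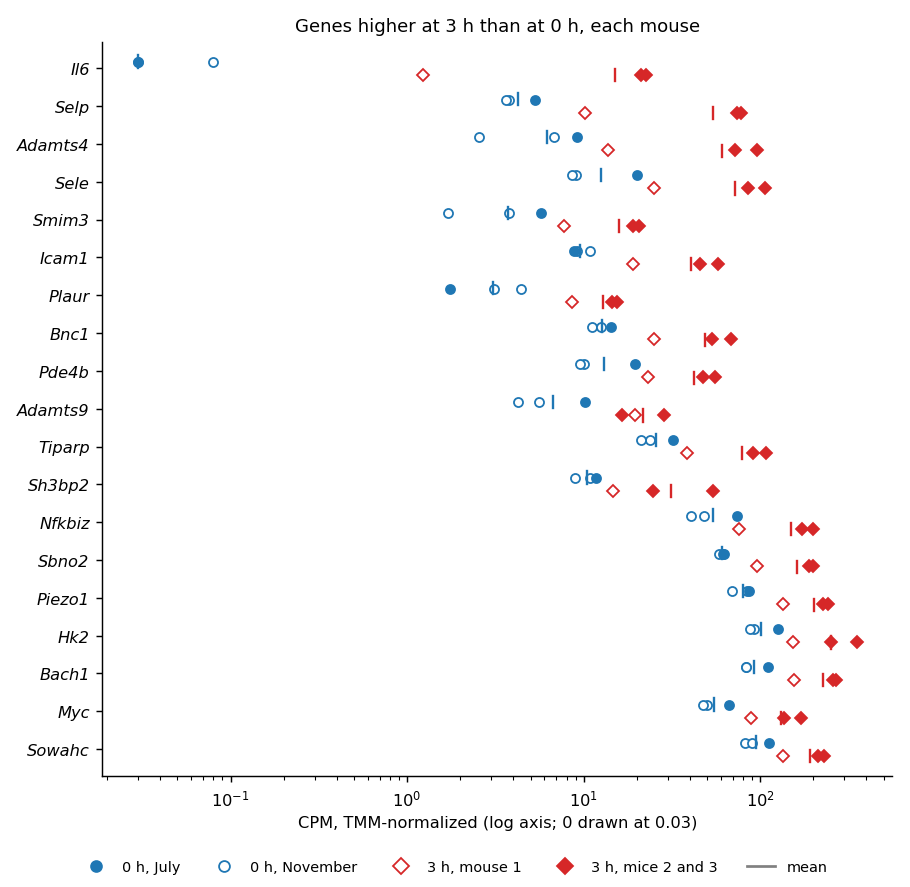
Normalized CPM on a log x axis for each of the 19 genes higher at 3 h, with 0 h mice as circles (filled for July, open for November), 3 h mice as diamonds (open for mouse 1) and short bars for the group means. The groups do not overlap for any gene, and 3 h mouse 1 lies between the 0 h mice and the other 3 h mice in 18 of the 19.

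Genes of cell division made up most of the lower group. By their known roles, a grouping made after the values were seen, 13 of the 16 lower genes act in mitosis or DNA synthesis, with log2 fold changes from -3.08 to -1.20 and a median of -1.73. Only 4 of the 13 belong to the list of cell cycle and DNA replication genes, and the other 9 lie outside it. Ncapg (chr5:45669919-45700546, plus strand), a condensin subunit that compacts chromosomes, had 18.0, 18.5 and 18.6 CPM at 0 h and 5.10, 5.36 and 4.70 CPM at 3 h. Both groups were tight and far apart (log2 fold change -1.85, standard error 0.30, adjusted p = 0.00698).

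Aurka (chr2:172356190-172370535, minus strand), the kinase that matures the spindle poles, had 14.1, 14.5 and 12.0 CPM at 0 h and 4.28, 2.68 and 2.17 CPM at 3 h (log2 fold change -2.11, standard error 0.38, adjusted p = 0.00965). All 3 h mice lay below all 0 h mice, and the July 0 h mouse stood with the November ones. Its promoter is shown because it carries the letters TTTGAA, the core of the cell cycle homology region bound by repressor complexes of mitotic genes, in capitals close to the start. That motif was searched after the values were seen. It was in 6 of the 14 lower genes with an entry (Aurka, Bub1b, Cenpf, Ncapg, Racgap1 and Sertad4) and in 3 of the 15 higher genes, against 20.2% of all genes with a promoter. The sequence is that of the minus strand at chr2:172370521-172370820 (RefSeq, GRCm38.p6).
Aurka: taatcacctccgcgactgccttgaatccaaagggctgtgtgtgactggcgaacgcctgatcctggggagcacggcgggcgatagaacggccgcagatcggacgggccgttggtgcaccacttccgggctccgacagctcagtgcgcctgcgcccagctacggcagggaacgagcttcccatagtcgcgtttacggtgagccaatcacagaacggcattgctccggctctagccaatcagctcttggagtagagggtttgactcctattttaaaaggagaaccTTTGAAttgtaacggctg

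Several members of the kinetochore, where chromosomes meet the spindle, fell. Cenph, an inner kinetochore protein, had 5.84, 5.65 and 9.12 CPM at 0 h and 1.43, 0.447 and 0.361 CPM at 3 h (log2 fold change -3.08, standard error 0.59, adjusted p = 0.0127). These were few counts, 2 and 1 in 3 h mice 2 and 3. Cenpf had 57.2, 66.1 and 81.4 CPM against 20.0, 17.4 and 35.4 CPM (log2 fold change -1.51, adjusted p = 0.0248), and Cenpe, a kinetochore motor, 34.4, 46.5 and 62.1 CPM against 7.34, 16.8 and 18.8 CPM (-1.75, 0.0444). Ska2, which ties kinetochores to microtubules, fell by 1.73 on the log2 scale (adjusted p = 0.0444). The checkpoint kinase Bub1b fell by 1.78 (0.0127) and the checkpoint ATPase Trip13 by 1.59 (0.0457).

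Spindle and cytokinesis genes fell as well. Nusap1, a spindle microtubule protein, had 31.7, 28.4 and 25.9 CPM at 0 h and 6.93, 9.16 and 10.5 CPM at 3 h (log2 fold change -1.71, adjusted p = 0.0113). Kif20a, a kinesin of the central spindle, had 26.5, 26.1 and 27.4 CPM against 8.36, 6.48 and 14.8 CPM (-1.46, 0.0105). Racgap1, which acts in cleavage furrow formation, had 30.8, 31.6 and 34.9 CPM against 13.9, 13.9 and 12.3 CPM (-1.27, 0.0363). In each of these the highest 3 h mouse stayed well below the lowest 0 h mouse. Ccna2, the cyclin of S phase and mitotic entry, fell from 46.1, 39.1 and 37.1 CPM to 15.5, 21.2 and 16.3 CPM (log2 fold change -1.20, adjusted p = 0.0301). Tk1, the thymidine kinase of S phase, fell from 37.2, 24.2 and 21.0 CPM to 6.12, 6.26 and 5.78 CPM (-2.18, 0.0163), and it was higher in the later campaign by 0.83 on the log2 scale.

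The list of 30 cell cycle and DNA replication genes moved with them. The 4 members that passed were Aurka, Kif20a, Cenpf and Ccna2, all lower (0.116% of all tested genes were called lower). A negative log2 fold change was found in 29 of the 30, the exception being Ccne2 at 0.84, and the median was -0.89. In 21 of the 30 all 3 h mice lay below all 0 h mice, as did 10.6% of all tested genes. The summed level of the list was 1031 to 1084 TPM at 0 h and 490.2 to 569.7 TPM at 3 h, with the July 0 h mouse inside the 0 h range. Mki67, a marker of cycling cells, was at 267, 321 and 286 CPM against 110, 106 and 159 CPM (log2 fold change -1.22), and Top2a, which untangles DNA, at 225, 216 and 220 CPM against 65.4, 119 and 105 CPM (-1.19), though neither passed. Pcna, the sliding clamp of replication, had a log2 fold change of -0.32, with 85.8, 66.1 and 87.0 CPM against 58.7, 67.7 and 64.7 CPM, groups that overlapped.

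**Figure D3:**
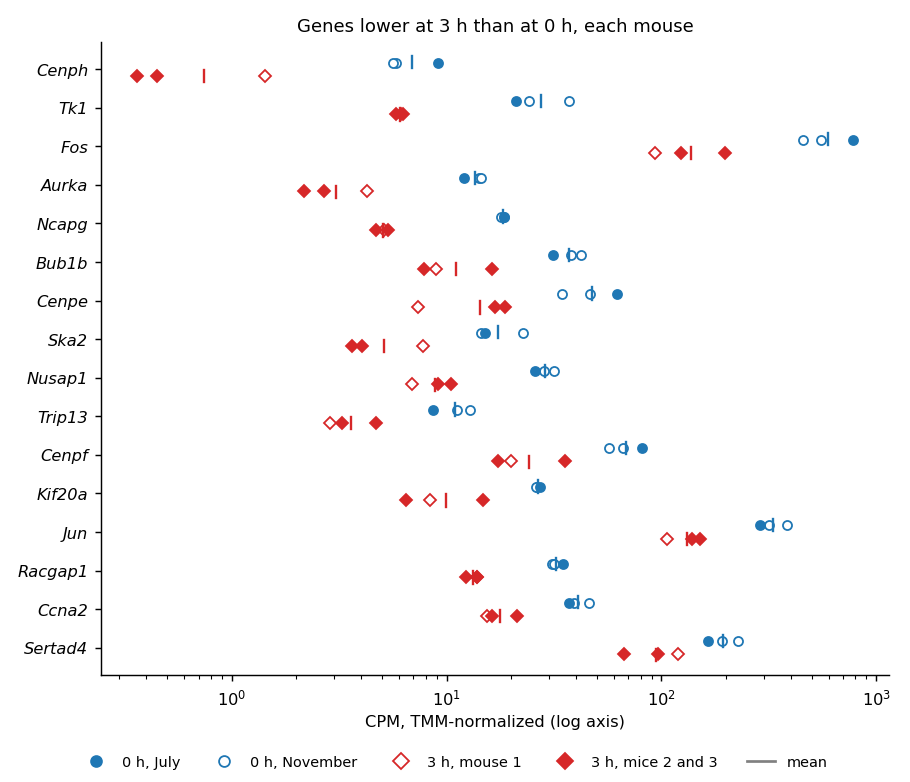
Normalized CPM on a log x axis for each of the 16 genes lower at 3 h, with symbols as in the plot of the higher genes. All 3 h mice lie below all 0 h mice for every gene, and 3 h mouse 1 is the highest of its group in 5 and the lowest in 6 of the 16.

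The other 3 lower genes were Fos, Jun and Sertad4. Fos, the AP-1 subunit that is a standard early marker of stimulation, was abundant at 0 h, with 556, 455 and 780 CPM, and lower at 3 h, with 93.4, 197 and 124 CPM (log2 fold change -2.11, standard error 0.47, adjusted p = 0.0476). Jun, its partner, had 316, 385 and 288 CPM against 106, 138 and 152 CPM (log2 fold change -1.32, standard error 0.29, adjusted p = 0.0399), and it was higher in the later campaign by 0.49. Sertad4 fell from 192, 226 and 164 CPM to 119, 66.8 and 96.5 CPM (log2 fold change -1.04, adjusted p = 0.00848).

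Beyond single genes, 20 lists of 383 genes were examined, of which 366 were tested. The lists were grouped by pathway and were chosen with earlier results of these data known. They hold 14 of the 35 called genes, and 21 are in none. Of all tested genes, 0.254% were called, 0.138% as higher and 0.116% as lower. The list of 30 immediate early and AP-1 genes did not move one way. Myc passed as higher and Fos and Jun as lower, 13 members had a positive and 17 a negative log2 fold change, and the median was -0.10. Egr1, a zinc finger immediate early gene, had 285, 283 and 315 CPM at 0 h and 82.5, 131 and 52.8 CPM at 3 h, but its adjusted p was 0.081 (log2 fold change -1.72). The values of Btg2 (-0.999), Klf2 (-1.02), Cyr61 (-0.91) and Ier2 (-0.80) were negative as well without passing. On the other side stood Fosl1, an AP-1 subunit of migrating keratinocytes, with 2.80, 0.746 and 12.8 CPM against 9.17, 69.3 and 36.1 CPM (log2 fold change 2.85, adjusted p = 0.175), and the orphan receptor Nr4a3 (2.08, 0.146). For both, the July 0 h mouse was above 3 h mouse 1. Klf10 (0.83) and Maff (0.93) did not pass either.

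Among the cytokines and chemokines other than Il6, none of 21 tested passed (0 of 21). At an unadjusted p under 0.05, 5 were higher, as were 5.26% of all tested genes. A positive log2 fold change was found in 17, and the median was 0.998. Cxcl1, a neutrophil attractant, had 2.0, 1.49 and 9.76 CPM at 0 h and 14.9, 65.5 and 71.6 CPM at 3 h, with all 3 h mice above all 0 h mice (log2 fold change 3.61, adjusted p = 0.0927). Ccl2, a monocyte attractant, stayed at low counts (log2 fold change 3.34, adjusted p = 0.269), as did Ccl7 (2.47, 0.228), and Ptges, which makes prostaglandin E, had 0.998 (0.226). Cxcl10, Ccl3 and Csf2 were at 0 counts in all 6 mice, where 3 counts per mouse was taken as the smallest number the depth can show.

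Wound keratinocyte genes leaned upward without a call. Of 20 tested members, 18 were positive, with a median of 0.69, and 0 passed. At an unadjusted p under 0.05, 6 were higher, as were 5.26% of all tested genes. Examples are Cldn4 at 0.74 and the fibronectin receptor subunit Itga5 at 1.04. Among 11 EGF receptor ligands and receptors, 0 passed and the median was 0.31. Epgn, an epidermal ligand, had 28.0, 18.6 and 55.8 CPM against 68.9, 123 and 67.2 CPM (log2 fold change 1.35, adjusted p = 0.175), and Hbegf had 0.83. The MAP kinase feedback inhibitors had 0 called of 16 and a median of 0.21, with Errfi1 at 1.06, Dusp10 at 2.005, Dusp4 at -1.47 and Dusp1 at -0.71.

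**Figure D4:**
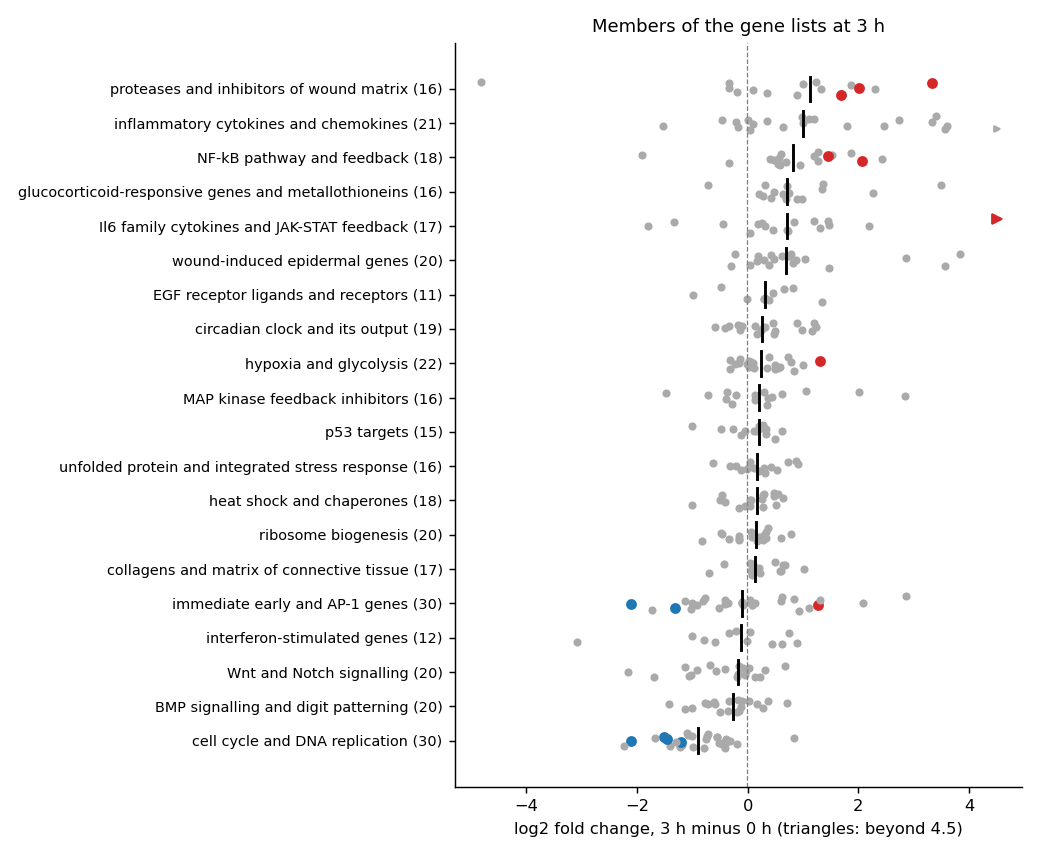
Log2 fold change of 3 h against 0 h for each tested member of the 20 gene lists, with the number tested in brackets, black bars for list medians, a dashed line for the median of all tested genes, red and blue points for members called higher and lower, and grey points for members not called. The medians run from -0.89 for the cell cycle list to 1.122 for the wound matrix proteases.

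None of the members of the 21 lists of cell type markers passed, so no cell type's markers were called higher or lower at 3 h. Some summed levels still differed in range. Skeletal muscle markers were at 7.72 to 101.2 TPM at 0 h and 0 to 14.06 TPM at 3 h, and erythroid markers at 219.4 to 1522 TPM and 127.1 to 511 TPM. Neutrophil markers were at 17.2 to 26.11 TPM and 18.91 to 56.65 TPM. Of the 8 tested neutrophil markers 6 were positive, with a fitted median log2 fold change of 3.38, which depends on how genes at 0 counts are fitted. S100a8 had 2 counts in the 0 h mice together and 16 in the 3 h mice, a ratio of 18.1 with a 95% counting interval of 4.26 to 163, and its adjusted p was 0.355. With 3 counts set for each 0 h mouse, its ratio of mean levels was 3.34. Elane was at 0 in all 6, and Camp was at 0 in the 0 h mice and at 1.22, 3.13 and 0 CPM in the 3 h mice. Macrophage and monocyte markers summed to 186.8 to 243.8 TPM and 101 to 294 TPM, and those of Langerhans and dendritic cells to 95.02 to 130.4 TPM and 160.3 to 176.5 TPM, ranges that did not overlap. The ranges of smooth muscle and pericyte markers did not overlap either, with 485.7 to 635 TPM at 0 h and 374.8 to 433.4 TPM at 3 h, and all 6 members were negative (median -0.55). Among single tested genes, all 3 h mice lay above all 0 h mice in 9.16% and below them in 10.6%. Those shares are for single genes, and no such share was worked out for sums over a list. All 8 tested nail and hair keratinocyte markers were positive (median 0.76), with summed levels of 5535 to 9504 TPM and 5748 to 14840 TPM. The differentiated keratinocyte markers summed to 67680 to 76110 TPM and 44130 to 97380 TPM. The part of any of these in the called genes was not tested.

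How long the differences lasted was described with the later times, each fitted against the same 0 h mice. The genes were chosen for their 3 h values, so their values at 6 h and later share the controls of that choice and are given side by side. The times also differ in their mix of campaigns, as all 12 h mice are of the earlier and all 21 d mice of the later one. The part of campaign in the values of the later times was not tested. At 6 h all 19 higher genes had a positive log2 fold change, with a median of 0.96, and 4 passed. Of all tested genes, 0.138% were called higher at 6 h, 0.116% at 12 h, 0.406% at 24 h, 0.486% at 3 d, 1.68% at 7 d, 1.48% at 14 d and 1.73% at 21 d. Selp stood at 3.67 at 3 h, 3.08 at 6 h, 2.105 at 12 h, 3.503 at 24 h and 3.55 at 3 d, and Il6 at 8.13, 7.95, 8.32, 9.80 and 7.23, fitted against a near absence at 0 h. Smim3 passed at every time but 12 h. Other higher genes came closer to 0 h at once: Tiparp went from 1.63 to 0.39 at 6 h and Myc from 1.27 to 0.30.

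The division genes were near their 0 h level at the next time point. The median log2 fold change of the 13 was -1.73 at 3 h, -0.23 at 6 h, -0.31 at 12 h, -0.66 at 24 h, -0.16 at 3 d and -0.03 at 7 d. None passed at 6 h or 12 h, and 2 passed at 24 h, Cenpe and Bub1b. Of all tested genes, 0.0508% were called lower at 6 h, 0.0508% at 12 h, 0.087% at 24 h, 0.0653% at 3 d, 0.66% at 7 d, 0.131% at 14 d and 0.21% at 21 d. The cell cycle list went from -0.89 to -0.25 at 6 h, -0.29 at 12 h and -0.54 at 24 h. Ncapg had 5.05 ± 0.334 CPM (SD, n = 3) at 3 h, 18.4 ± 0.319 (SD, n = 3) at 0 h and 15.3 ± 3.64 (SD, n = 3) at 6 h.

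A direct test of 3 h against 6 h, chosen after the data were seen, called 11 of 13793 genes higher (0.0798%) and 11 lower (0.0798%) at 3 h. Of the 13 division genes, 4 were lower at 3 h than at 6 h, namely Aurka (log2 difference -2.34, adjusted p = 0.00621), Ncapg (-1.59, 0.0219), Nusap1 (-1.60, 0.0306) and Kif20a (-1.30, 0.0351). All 13 had an unadjusted p under 0.05, but the share of all tested genes at that level was not counted for this test. The 3 h values that chose these genes enter this test, so it is no independent support. Of the 19 higher genes, 0 passed in edgeR's test against 6 h. An unadjusted p under 0.05 was found in 12, likewise without a share over all genes.

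Fos and Jun followed another course. Fos stood at -2.11 at 3 h, -3.29 at 6 h, -3.54 at 12 h and -3.44 at 24 h, and passed at every time up to 14 d. Jun stood at -1.32, -1.84, -1.94 and -1.86 at these times and likewise passed up to 14 d. At 21 d neither passed (-1.08 and -0.61). All 21 d mice are of the later campaign, and the later minus earlier difference was -0.32 for Fos and 0.49 for Jun on the log2 scale. Their mean at 0 h was thus the highest of the series in the fit, since the log2 fold change was negative at every later time.

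**Figure D5:**
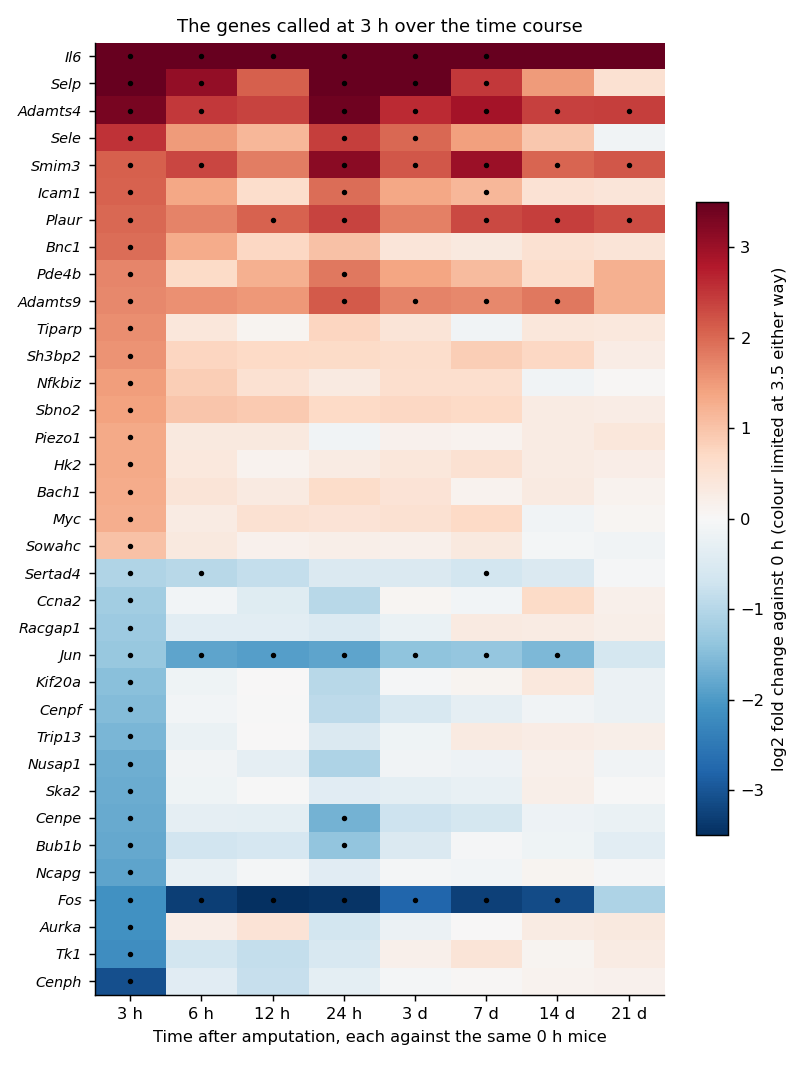
Log2 fold change against the same 0 h mice for the 35 genes called at 3 h, one row per gene and one column per time, red for higher and blue for lower, with a dot where the adjusted p is under 0.05. The mitotic genes are blue at 3 h and pale at 6 h and 12 h, while Fos and Jun are blue to 14 d and Il6 is red throughout.

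Reads were mapped to transcripts and the labels do not state whether strand was used, so that genes with shared exons are less certain. Of the 35 called genes, 13 have over 100 exon bases within another gene of the GRCm38 annotation, all on the opposite strand. The longest such stretches were 2441 bases of Piezo1 with Ctu2, 1381 of Adamts9 with A730049H05Rik, 1271 of Kif20a with Cdc23, 944 of Ncapg with Lcorl, 511 of Icam1 with Gm47079 and 510 of Ccna2 with Exosc9. Shared sequence above 5% of 31-base stretches was found for Ska2 (8.43% with Ska2l-ps) and Racgap1 (6.06% with AC148020.1). Reads of the partner that fall in these shared stretches cannot be told apart. The annotation used for these checks is newer than the Ensembl v75 genes of the counts.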

How the data were processed

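The authors mapped single-end reads of 65 bases to Ensembl v75 mouse genes with Bowtie, allowing up to 2 mismatches and 200 hits, and ran RSEM 1.2.3 to obtain each gene's expected counts and TPM. Base calls came from CASAVA 1.8.2 per the labels. The expected counts deposited are not normalized (78.1% were whole) and the TPM deposited are relative to all genes of a mouse. The authors' averages over time points were not used.

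Expected counts were rounded and tested with edgeR 4.0.16 in R 4.3.3 (TMM, the edgeR filter by time point, quasi-likelihood test, Benjamini-Hochberg at 0.05), all 30 mice in 1 fit, which kept 13793 of 20321 genes with 99.95% of counts. Other fits used DESeq2 1.42.0 and limma 3.58.1. Depth ran from 3167625 to 16277816 counts per mouse, and intervals cover counting error only. Chi-square per degree of freedom between mice of a group was at least 17.8, far above sampling noise. Libraries were taken as separate mice, and p-values rest on the spread between mice of a time point, pooled over all 30 mice. The 3 h mice share the same date, so a difference between dates at 3 h is not covered. The scripts were tested on simulated data. Coordinates are GRCm38, and promoters are those of RefSeq GRCm38.p6, with 29 of 35 called genes matched. Python 3.11.15 was used for lists and plots.

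Genes were to be named from all 35 called genes, the 4 members of lowest p of each list (12 for immediate early genes), the highest marker of each cell type and the 10 most abundant genes at 3 h. Not every list member or marker under this rule is printed. Members and lists were chosen with earlier results of these data known, and genes outside this rule (Mki67, Top2a, Pcna, Ccne2, Asf1b, Ect2, Camp, Elane) were named after their values were seen.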

Additional observations from a re-analysis of the deposited data

How the results depend on the processing

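The 35 calls (19 higher, 16 lower) kept their direction in each alternative that gave them a value, and Il6 had none in the fit of the 6 mice. The count was 152 (74 higher, 78 lower) with DESeq2's Wald test, 9 (6 and 3) at a threshold of 0.01, 0 (0 and 0) with only the 6 mice, 1 (0 and 1) with only the earlier campaign, 64 (31 and 33) without the left-foot mice of 7 d, 39 (3 and 36) with limma on log2(TPM + 1) and 56 (10 and 46) with a pseudocount of 0.1. It was 46 with DESeq2 size factors, 38 with no filter, 43 with a stricter filter, 47 with campaign as a covariate and 33 with the 15 mice up to 24 h. With 1 mouse left out at a time it ran from 0 to 150 (higher genes 0 to 75, lower genes 0 to 75). Where 0 h mouse 1, 0 h mouse 2 or 3 h mouse 2 was left out, none of the 35 passed. Chosen after seeing the data, libraries thinned to equal depth gave 35 calls, 30 of them among the 35, and campaign as a covariate without 3 h mouse 1 gave 145 (79 and 66). Against the July 0 h mouse alone, a single mouse, 2884 genes lay above and 3123 below, where 1263 and 1457 did so against all 3. The cause of these changes was not tested. No paired analysis was possible because the replicate numbers only follow the order of the samples and no more than 1 animal label recurs between the 2 times. Depth limits the low genes: Il6 rests on 1 count at 0 h and Cenph on 1 and 2 counts in a pair of 3 h mice.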

Other observations

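Several gene groups that the comparison did not turn on gave values of their own, none of them past the threshold. Among 16 tested genes that respond to glucocorticoids or metals, 15 had a positive log2 fold change at 3 h, the median was 0.71 and 0 passed. At an unadjusted p under 0.05, 7 were higher and 1 lower, against 5.26% and 5.66% of all tested genes. Angptl4, a lipase inhibitor, had 0.80, 0.426 and 1.1199 CPM at 0 h and 6.93, 9.38 and 10.1 CPM at 3 h (log2 fold change 3.495, adjusted p = 0.0501). Zbtb16 had 5.68, 10.4 and 12.6 CPM against 61.6, 50.05 and 24.6 CPM (2.26, 0.196), and Fkbp5, a steroid receptor cochaperone, 27.4, 24.8 and 20.3 CPM against 85.0, 46.5 and 52.0 CPM (1.34, 0.223). In these 2 genes 3 h mouse 1 was the highest of its group. The metallothionein Mt2 had 0.97. Of the 19 clock genes tested 0 passed, with a median of 0.26. Cry1, a clock repressor, had 19.5, 20.5 and 13.9 CPM against 40.8, 41.6 and 44.8 CPM (1.23, adjusted p = 0.106), and Per2 had 1.203, with all 3 h mice above all 0 h mice. Per1 (0.89) and Nfil3 (1.17) had overlapping groups. The hour of day at which digits were collected is not given in the sources used here, and its part was not tested.

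Stress lists were close to the median of all genes. Atf4, the effector of the integrated stress response, had 116, 106 and 113 CPM at 0 h and 144, 222 and 244 CPM at 3 h (log2 fold change 0.86, adjusted p = 0.0525), while the 16 tested genes of that list had a median of 0.16 and 0 passed. Heat shock genes (18 tested, median 0.16, Hspb1 at 0.63), p53 targets (15 tested, median 0.21, Mdm2 at 0.63), ribosome biogenesis (20 tested, median 0.15, Gnl3 at 0.61) and collagens and matrix (17 tested, median 0.14, Lox at 1.02) had 0 called. The patterning lists leaned the other way, also with 0 called: BMP signalling had 15 of 20 negative and a median of -0.27, with Id4 at -0.71, and Wnt and Notch signalling 15 of 20 negative and a median of -0.18, with Wnt3a at -2.17 and Nrarp at -0.91. Among 12 interferon-stimulated genes, 5 were positive and 7 negative, and the median was -0.11, with 0 called. Usp18, one of the negative members, had 39 counts in the 0 h mice together and 2 in the 3 h mice. The ratio of 0 h over 3 h was 8.6, with a 95% counting interval of 2.23 to 73.5. With 3 counts set for each 3 h mouse, the ratio of mean levels was 1.95.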
